A study of Oryza sativa Japonica Group with 15 samples.

Results

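The upper flank of the rice shoot base after 6 h of gravistimulation was compared with the whole shoot base at 0 h, before the plants were turned. The comparison used 6 of the 15 arrays in the series, 3 of the upper flank at 6 h and 3 of the whole shoot base at 0 h. The plants were japonica rice (Oryza sativa) seedlings of 21 days that had stood in darkness for 16 h. For the 6 h samples, seedlings were laid horizontal, and the side of the shoot base that then faced upwards was cut off and pooled from many plants. The 0 h samples were pooled shoot bases of upright seedlings, taken whole. The other 9 arrays held lower flanks of both times and the early upper flank, taken at 0.5 h, and all of them entered the fit, where they add to the estimate of the spread. The early upper flank and the late lower flank are also compared with the upper flank at 6 h below. All groups shared the same strain, age and dark pretreatment. The sources differ on the light after turning, which was none by the sample labels and dim green light by the study's methods. The 2 groups therefore differed in orientation, in the kind of piece cut, in the hour of the day and in the added hours without daylight, under whichever of these light conditions, and these cannot be told apart in this comparison. Flanks of upright plants kept for 6 h were not analysed here.

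A horizontal shoot turns upwards because cells of its lower flank elongate more than those of its upper flank. The hormone auxin is moved towards the lower side, where it drives wall loosening and the transcription of early auxin genes, so the upper flank is the side on which growth slows. In grass seedlings this happens at the base of the leaf sheaths, where starch-filled cells sense gravity, and the shoot base also holds the shoot meristem and the dividing cells of young leaves. Transcripts of plants kept without daylight also follow the circadian clock, and sugar supply falls as such a period is prolonged.

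Signals were expressed as log2 values minus the median of each array, here called the centred log2 signal, and differences are always the upper flank at 6 h minus the whole base at 0 h unless stated. A transcript was called when its adjusted p was under 0.05 in limma (Benjamini-Hochberg over all 28629 probe sets tested). By this rule 6697 probe sets were called, 23.4% of those tested, with 2301 (8.04%) higher and 4396 (15.4%) lower in the upper flank at 6 h. At least 2-fold changes were called for 2735 probe sets (9.55%), 1083 higher (3.78%) and 1652 lower (5.77%). The 3 arrays of one group lay wholly above or below those of the other for 37.9% of the probe sets. The share of calls that were higher was 34.4%, and it was 47.4% after quantile normalization (3278 higher, 3639 lower), so the balance of rises and falls depended on the scaling. The median difference over all probe sets was -0.08. With the third array of the upper flank at 6 h left out 4634 probe sets were called, and 4827 without the third 0 h array.

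The arrays of replicate 1 stood apart in a labelling control: the signal of the 5′ probe set for the bacterial dap spike lay between 106.6 and 209 there and between 16.5 and 26.28 elsewhere in the series. With replicates 2 and 3 only, 6328 probe sets were called, 1997 higher and 4331 lower. In replicate 1, which took no part in those calls, 95.6% of the 1997 were also above 0 and 94.5% of the 4331 below 0, against 47.2% above 0 and 52.8% below 0 among all tested. A measure of RNA integrity moved with the groups. The log2 ratio of the 3′ to the 5′ probe set of Gapdh, a glycolytic enzyme used as an array control, was 3.55, 4.5 and 4.09 in the upper flank at 6 h, against 2.97, 3.18 and 3.13 at 0 h, so the groups did not overlap. For actin it was 2.91, 4.0 and 3.68 in the upper flank at 6 h and 2.37, 2.93 and 2.54 at 0 h, so the groups overlapped. The ratios of cyclophilin and ubiquitin overlapped between these groups as well. What part such ratios had in the results was not tested. The upper flank at 0.5 h had Gapdh ratios of 3.54, 4.5 and 4.1, close to those at 6 h, so the difference between the upper flank at 6 h and at 0.5 h is given below beside the main results. The ubiquitin ratios were not matched in that comparison. They were -0.218, 0.109 and 0.0159 at 0.5 h, against -0.504, -0.262 and -0.294 at 6 h.

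The transcripts that rose most in the upper flank included the pseudo-response regulator OsPRR73, the light-induced gene LIR1, the calcium-regulated kinase CIPK10 and 2 glutaredoxins, small enzymes that reduce disulphides with glutathione. GRXC10 had a centred log2 signal of 7.56, 7.63 and 7.59 in the upper flank at 6 h, against 1.90, 3.18 and 2.70 at 0 h, a difference of 5.0 (SE 0.38, 32.0-fold, adjusted p = 4.3e-06, limma). CIPK10, which acts with calcineurin B-like calcium sensors, stood at 5.34, 5.0 and 5.11 in the upper flank and at 1.54, 1.25 and 1.13 at 0 h (difference 3.84, SE 0.15, adjusted p = 2.24e-08, limma). All 4 of its probe sets rose, by 3.36 to 5.03. The spread within either group was small beside these differences. No array of 1 group reached the level of the other, but the rule that named these genes required this. LIR1, a plastid protein whose transcript is induced by light, read 5.62, 4.89 and 4.85 in the upper flank, against 1.17, 1.25 and 0.97 at 0 h (difference 3.99, SE 0.23).

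The 12 largest rises with a name also held an α-amylase and a trehalose-6-phosphate phosphatase. AMY3D, an amylase of the kind that is induced when sugar is short, had values of 3.32, 3.84 and 4.08 in the upper flank and 0.79, 1.02 and -0.11 at 0 h (difference 3.18, SE 0.37). OsTPP7, the phosphatase, read 7.19, 7.22 and 7.12 in the upper flank against 4.18, 4.25 and 3.76 at 0 h (difference 3.12, SE 0.20). The locus Os05g31140, described as a lichenase, an enzyme that cuts mixed-linkage glucans of grass walls, rose by 2.75 (SE 0.48). The other rises were BURP16 (3.85), the GAST1-like locus Os09g24840 (3.10), GRXC15 (2.88), OsRAA1 (2.74), a small protein that was found through its effect on root growth, and Os11g24140, described as a chemocyanin precursor (2.65). The names of loci given only as Os numbers came from descriptions in the study's tables of flank differences, so such loci were not a random choice.

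**Figure D1:**
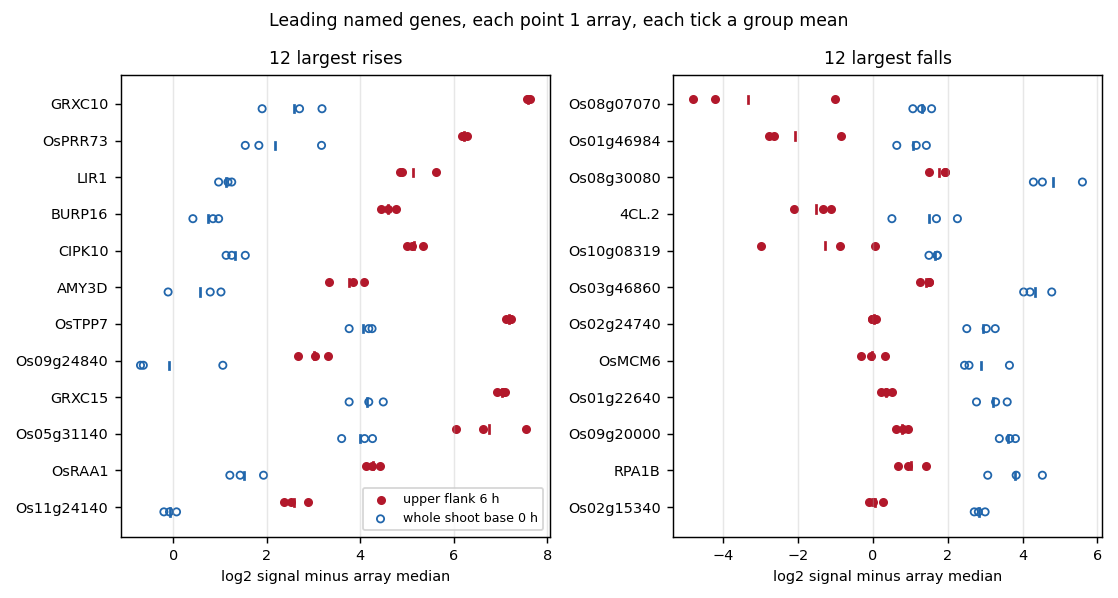
Centred log2 signal (x axis, log2 signal minus the array median) of the named genes with the 12 largest rises (left) and the 12 largest falls (right). Filled points are the 3 arrays of the upper flank at 6 h, open points the 3 arrays of the whole base at 0 h, and ticks the group means. The groups do not overlap for any of the 24, as the naming rule required, and GRXC10 shows the widest gap among the rises, at 5.0.

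The 12 largest falls with a name included 2 genes of DNA replication, OsMCM6 and RPA1B, beside genes of various other roles. OsMCM6, a subunit of the helicase that opens DNA for replication, had values of -0.32, -0.05 and 0.32 in the upper flank at 6 h and 2.57, 2.45 and 3.65 at 0 h (difference -2.91, SE 0.33, 7.52-fold, adjusted p = 6.5e-05, limma). RPA1B, the large subunit of a protein that coats single-stranded DNA, read 0.67, 1.42 and 0.94 in the upper flank, against 3.83, 3.07 and 4.53 at 0 h (difference -2.80, SE 0.31). The naming rule required groups without overlap, and for both genes they were apart by more than 1 log2 unit. OsSAUR9 (Os02g24740), one of the small auxin-up RNA genes that are among the fastest to answer auxin, stood at 0.09, -0.02 and -0.02 in the upper flank and 2.51, 3.03 and 3.27 at 0 h (difference -2.92, SE 0.25). In the upper flank OsMCM6 and OsSAUR9 read near the array median, where the size of a fall is less certain. 4CL.2, a 4-coumarate:CoA ligase at the entry to phenylpropanoid products, fell by 3.01 (SE 0.52). Os08g30080, described as an oxidase of the last step of ethylene synthesis, fell by 3.02 (SE 0.32), and Os02g15340, described as a NAC domain protein, fell by 2.79 (SE 0.19). Os08g07070, a protein without a described role, showed the largest fall at 4.65, but its upper flank arrays spread from -4.81 to -1.01, below the array median, where values are least certain. The remaining falls in this set of 12 ran from -3.16 to -2.82.

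The genes were then read by lists of known function, with 1 probe set for each gene. Over all 15858 genes with a probe set of their own the median difference was -0.09, with 8.99% called higher and 17.6% called lower, and the counts below are to be read against these shares. Most of the clock list rose, and 4 of 8 genes in the list of hypoxia and fermentation rose. The lists of cellulose synthases, auxin response factors, cell cycle genes, brassinosteroid genes and Aux/IAA repressors held more falls than the background share. Lists of jasmonate, defence and ribosomal protein genes held few calls. Where a list had only 1 or 2 calls in a direction, leaving out 1 array often removed 1 of them, so such counts are given for completeness and the genes named from them kept their own calls unless stated.

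**Figure D2:**
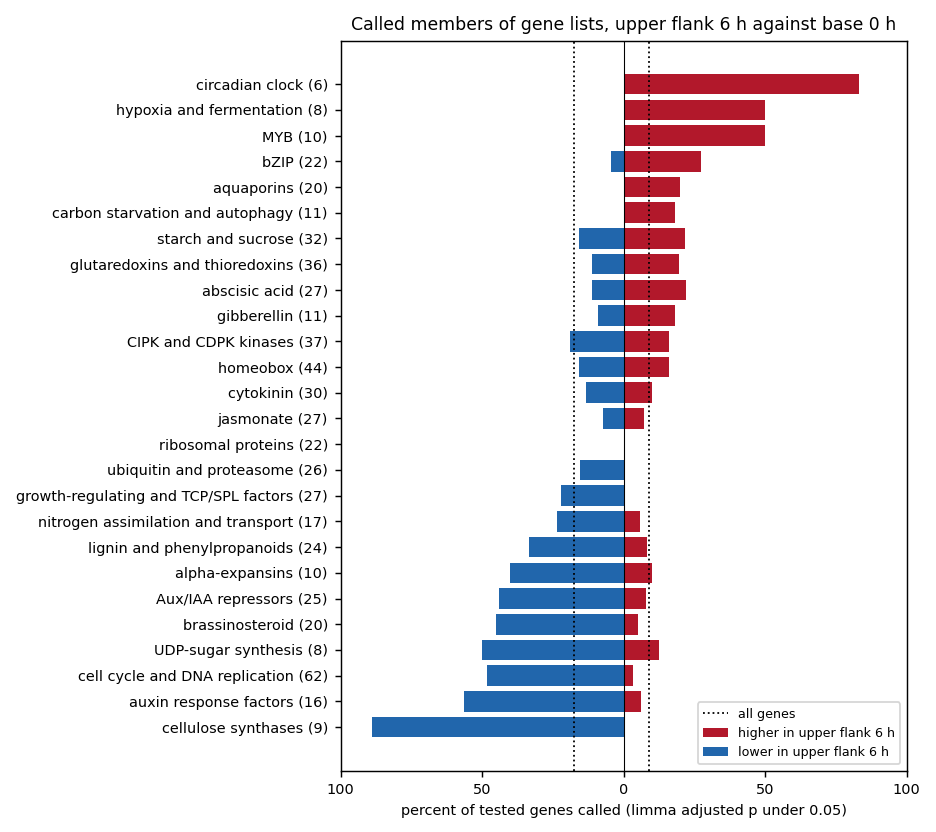
Percent of the tested genes of selected lists that were called in limma, higher in the upper flank at 6 h to the right and lower to the left of 0, with the number of tested genes in brackets. The dotted lines mark the shares over all 15858 genes, 8.99% higher and 17.6% lower. The clock list (5 of 6) reaches farthest to the right and the cellulose synthases (8 of 9) farthest to the left.

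Of the 6 tested genes of the circadian clock, 5 rose and none fell, and the median difference was 1.05. The 4 pseudo-response regulators, which act in turn through the day as repressors in the clock loop, all rose. OsPRR73 had values of 6.19, 6.28 and 6.17 in the upper flank at 6 h and 1.54, 3.17 and 1.83 at 0 h (difference 4.03, SE 0.40, adjusted p = 2.52e-05, limma). OsPRR95 read 6.41, 6.16 and 6.16 in the upper flank and 3.73, 3.64 and 3.56 at 0 h (difference 2.6, SE 0.13). OsPRR37 rose by 0.97 (SE 0.22) and OsPRR1, the rice form of TOC1, by 0.65 (SE 0.13). GI, the plant-specific protein GIGANTEA that links the clock to flowering, stood at 4.71, 3.79 and 3.90 in the upper flank, against 2.99, 3.13 and 2.86 at 0 h (difference 1.14, SE 0.22). CCA1, also named LHY, the morning-phased partner of the PRR genes, was the exception, with 7.70, 7.70 and 7.59 in the upper flank and 7.52, 7.86 and 7.72 at 0 h (difference -0.04, SE 0.11, adjusted p = 0.838, limma). The 5 calls were kept whichever array was left out, and 4 were made without centring and 4 with replicates 2 and 3 only.

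The clock genes moved between 0.5 h and 6 h, and no difference between the flanks was called. Between 0.5 h and 6 h in the upper flank OsPRR73 rose by 4.01, OsPRR95 by 2.55 and GI by 1.94 (adjusted p = 1.11e-05, 9.8e-08 and 2.66e-05 in limma). When the flanks were compared with each other at 6 h, none of the 6 genes was called. For OsPRR73 that difference was 0.29 (adjusted p = 0.798, limma), and its lower flank arrays read 5.66, 5.90 and 6.19. Of 9 tested genes for light perception and flowering time, 2 rose and 2 fell. DTH8, a repressor of flowering in long days, rose by 1.24 (SE 0.29), and SE5, which makes the phytochrome chromophore, rose by 0.54 (SE 0.13), while Hd1, the rice CONSTANS protein, fell by 1.33 (SE 0.33) from a level already near the array median.

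**Figure D3:**
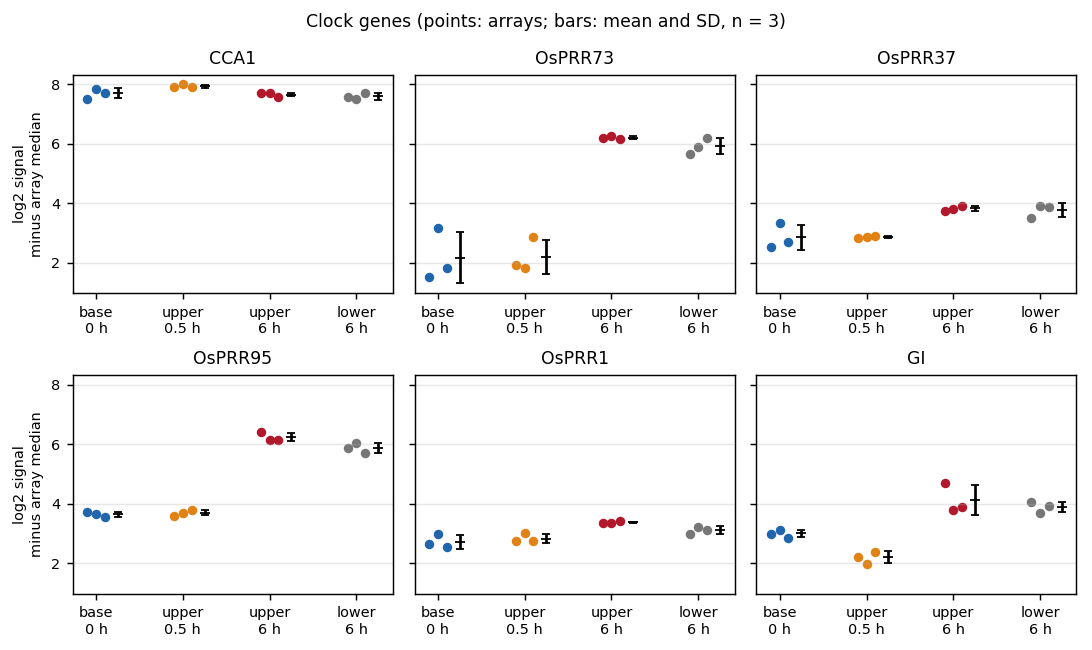
Centred log2 signal (y axis) of the 6 tested clock genes in the whole base (0 h), the early (0.5 h) and late (6 h) upper flank, and the late lower flank (6 h). Points are arrays and the bars give the mean and SD (n = 3). OsPRR73 and OsPRR95 lie high at 6 h in both flanks, while CCA1 stays between 7.52 and 7.86 at 0 h and between 7.59 and 7.70 in the upper flank at 6 h.

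Of 62 tested cell cycle and replication genes 30 fell and 2 rose, with a median difference of -0.49, and 28 fell and 2 rose with replicates 2 and 3 only. All 6 subunits of the replicative helicase were called lower. They are given here as a complete complex, although only OsMCM6 and MCM4 came from the naming rule. MCM4 had values of 1.0, 1.56 and 0.98 in the upper flank, against 3.24, 3.27 and 4.65 at 0 h (difference -2.55, SE 0.36). MCM5 fell by 1.79, MCM7 by 1.57, MCM2 by 1.44 and MCM3 by 1.23. Without the third 0 h array MCM7 and MCM3 were not called, and MCM3 was not called without the first upper flank array either. OsPCNA, the sliding clamp of the replication fork, fell by 1.4 (SE 0.20), to a mean of 3.74 ± 0.18 in the upper flank, against 5.14 ± 0.50 at 0 h (SD, n = 3).

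The fall extended to other steps of replication but was not called in every part of the cell cycle. The DNA polymerase delta genes OspolD2 and OspolD1 fell by 1.64 and 1.24, and OsRPA32, the middle subunit of the DNA-coating protein, by 1.64. CYCD3-2, a D-type cyclin that starts the cycle, read 2.83, 2.0 and 1.58 in the upper flank, against 4.15, 3.88 and 5.05 at 0 h (difference -2.22, SE 0.32). OsRBR1, the retinoblastoma-related protein on which such cyclins act, fell by 1.53. The B-type cyclin CYCB1-1/CycB1;1 had a difference of -0.36 (adjusted p = 0.476, limma) and the kinase CDC2-1 of -0.10. The 5 histone genes tested had a median of -0.40, with none called, although all 5 lay below 0. Against the upper flank at 0.5 h all 5 were called lower (median -0.57), beside 22.8% of all genes. The 2 rises were KRP6, an inhibitor of cyclin-dependent kinases, by 1.42 (SE 0.26), and the kinase CDKF-3 by 0.62.

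The third 0 h array was the highest of its group for OsMCM6, RPA1B, MCM4 and CYCD3-2. The count of falls in this list ran from 20 to 30 over the 15 fits that each left out 1 array. Against the upper flank at 0.5 h, 37 of the 62 fell and 6 rose by 6 h, with a median of -0.69. None of the 62 was called between the 2 flanks at 6 h, and 1 was called higher in the upper flank with replicate number as a block. In bulk tissue, fewer dividing cells in a piece and less of these transcripts in each cell cannot be told apart. Of 6 meristem markers 1 was called higher and none lower. Their summed linear signal was 426 to 447 array medians in the upper flank and 366 to 393 at 0 h, and OSH1, the homeobox gene that marks the shoot meristem, had a mean of 7.38 ± 0.08 in the upper flank and 7.28 ± 0.04 at 0 h (SD, n = 3).

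**Figure D4:**
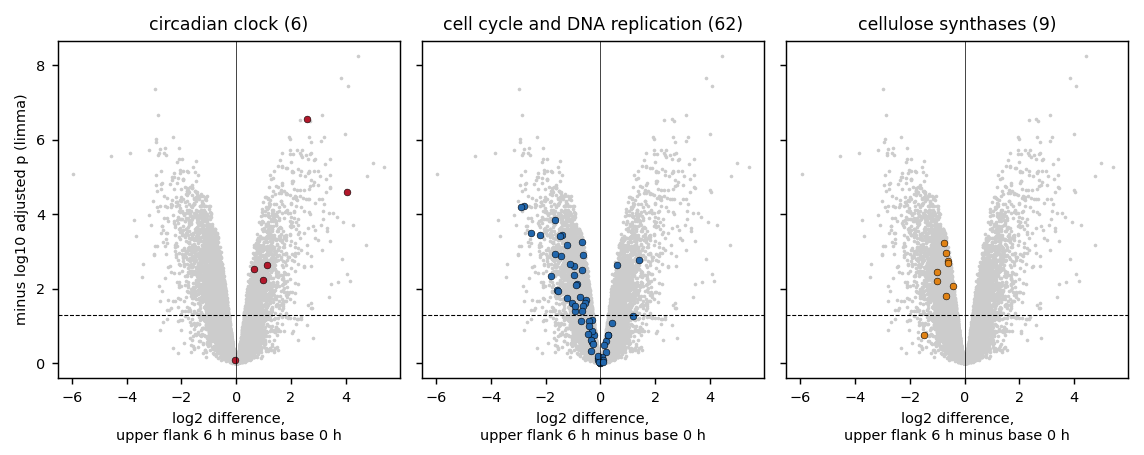
Difference in centred log2 signal between the upper flank at 6 h and the whole base at 0 h (x axis) against minus log10 of the limma adjusted p (y axis) for 15858 genes in grey. Coloured points are the 6 clock genes, the 62 cell cycle and DNA replication genes and the 9 cellulose synthases. Points above the dashed line had an adjusted p under 0.05. The clock genes lie to the right except CCA1, and 30 of the cell cycle genes lie to the left above the line.

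Among genes of wall synthesis the cellulose synthases held the highest share of falls. Of 9 cellulose synthases 8 fell and none rose, with a median difference of -0.69. CESA4 and CESA7, which make cellulose of secondary walls together with CESA9, fell most among the calls: CESA4 had values of 5.16, 5.37 and 5.16 in the upper flank, against 5.97, 6.25 and 6.50 at 0 h (difference -1.01, SE 0.21), and CESA7 fell by 1.03 (SE 0.23). CESA1, CESA3 and CESA8, which serve primary walls, fell by 0.60, 0.44 and 0.76. CESA2 differed by -1.47 with a wide spread (adjusted p = 0.18, limma). BC1, the COBRA-like protein whose loss makes culms brittle, fell by 1.09 (SE 0.15), so that all 4 markers of secondary-walled xylem and fibre were lower, with a summed signal of 75.1 to 94.4 array medians in the upper flank and 146 to 202 at 0 h. Their sum was 65 to 91.6 in the lower flank at 6 h. Without centring of the arrays 5 of the 9 cellulose synthases were called lower, and 8 with replicates 2 and 3 only.

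Of 16 cellulose-synthase-like genes 5 fell and none rose, and 3 fell without the third upper flank array or without centring. OsCslF8, of a grass subfamily that makes mixed-linkage glucan, read 1.43, 1.56 and 0.70 in the upper flank and 3.57, 3.29 and 3.68 at 0 h (difference -2.28, SE 0.22, adjusted p = 2.13e-05, limma). CSLC7 and CSLC9, of the subfamily that makes the backbone of xyloglucan, fell by 0.88 and 0.65. Of 8 genes for UDP-sugars 4 fell and 1 rose. Os-UGD4, a UDP-glucose dehydrogenase that supplies acidic wall sugars, fell by 0.83 (SE 0.12), while the epimerases OsUGE-2 and OsUGE-3 went apart, OsUGE-2 lower by 0.84 (SE 0.13) and OsUGE-3 higher by 1.29 (SE 0.24). Without centring 2 of the 8 were called lower.

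Expansins, which loosen walls without cutting them, were mixed. Of 10 α-expansins 4 fell and 1 rose, and with replicates 2 and 3 only 6 fell and 3 rose. EXP5 had values of 3.57, 3.07 and 2.92 in the upper flank and 5.15, 5.11 and 5.88 at 0 h (difference -2.19, SE 0.23), EXP16 fell by 1.45 and EXP7 by 1.17. EXP1 went the other way, with 6.57, 6.4 and 6.61 in the upper flank against 4.27, 4.67 and 5.55 at 0 h (difference 1.70, SE 0.27). Of 9 β-expansins, the group that is expanded in grasses, 3 fell and 1 rose. EXPB17 fell by 2.04 (SE 0.28) and EXPB11 by 1.26 (SE 0.14).

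Of 24 genes of lignin and phenylpropanoid synthesis 8 fell and 2 rose, with a median difference of -0.52. Laccases, which couple lignin monomers in the wall, changed in both directions. LAC23 stood at 0.37, 1.0 and 0.57 in the upper flank and 2.91, 2.83 and 3.35 at 0 h (difference -2.38, SE 0.27), and LAC4 fell by 2.02 (SE 0.19). LAC7 read 5.54, 5.45 and 5.33 in the upper flank against 2.95, 2.95 and 2.79 at 0 h (difference 2.54, SE 0.18). The cinnamyl alcohol dehydrogenases CAD6 and CAD3 fell by 2.01 and 1.23, and CAD8C rose by 0.75. PAL, of the family at the first step of the pathway, differed by 0.13 (adjusted p = 0.596, limma).

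Among 50 tested Aux/IAA, auxin response factor and GH3 genes, 23 were called lower and 3 higher. The Aux/IAA proteins are repressors whose own transcripts are induced by auxin. Of 25 tested Aux/IAA genes 11 fell and 2 rose, and the median difference was -0.42. The gene listed as IAA20 and IAA4 (here IAA20/IAA4) had values of -0.67, 0.21 and -0.08 in the upper flank, against 2.07, 1.93 and 1.84 at 0 h (difference -2.13, SE 0.26, 4.37-fold, adjusted p = 0.000117, limma), and both of its probe sets fell. Its upper flank values lay near the array median, so the size of this fall is less certain. IAA20 read -1.77, -2.91 and -0.63 in the upper flank and 0.31, 0.13 and -0.14 at 0 h (difference -1.87, SE 0.44), below or near the array median throughout. IAA25, IAA31 and IAA24 fell by 1.38, 0.86 and 0.85. IAA2 rose, with 7.87, 7.89 and 7.74 in the upper flank, against 5.92, 6.03 and 5.64 at 0 h (difference 1.97, SE 0.12), and so did IAA9 by 1.41 (SE 0.35). The falls ran from 8 to 11 over the 15 fits that left out 1 array.

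Auxin response factors, the DNA-binding proteins that Aux/IAA proteins restrain, fell in 9 of 16 cases and rose in 1, with a median of -0.56. ARF10 was lowest, with 1.24, 2.11 and 1.85 in the upper flank and 3.87, 4.23 and 4.39 at 0 h (difference -2.43, SE 0.22, 5.39-fold). ARF9 and ARF24 fell by 0.97 and 0.67. The count of falls was 4 without the third upper flank array and 4 without the third 0 h array, and 9 with replicates 2 and 3 only. Of 9 GH3 genes, whose enzymes attach amino acids to auxin or jasmonate, 3 fell and none rose. GH3.5 fell by 1.96 (SE 0.25) and GH3.9 by 1.66 (SE 0.32). Among 9 genes of auxin transport and synthesis, OsPIN4, of the PIN efflux carriers, read 2.24, 1.15 and 1.96 in the upper flank and -0.75, -0.77 and -0.57 at 0 h (difference 2.48, SE 0.48), and FIB, an aminotransferase of auxin synthesis, fell by 1.01 (SE 0.18).

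Other hormone lists changed less evenly. Of 20 brassinosteroid genes 9 fell and 1 rose. BZR1 and BZR3, of the transcription factors at the end of the pathway, fell by 0.99 and 0.74. DWARF, the oxidase of the last synthetic steps, fell by 0.71, and the receptor-like kinases BRL1 and BAK1 by 0.66 and 0.43. Without centring 5 of the 20 were called lower. BU1, a small helix-loop-helix protein that promotes leaf angle, was the rise at 1.02 (SE 0.26), and lost its call without the third 0 h array. Of 30 cytokinin genes 3 rose and 4 fell. CKX11, which degrades cytokinin, read 6.30, 6.34 and 6.26 in the upper flank and 4.56, 4.82 and 4.52 at 0 h (difference 1.66, SE 0.13), while OsRR1, a response regulator whose transcript is induced by cytokinin, fell by 2.29 (SE 0.29). Among 3 strigolactone genes the receptor D14 rose by 2.09 (SE 0.17), to 7.63, 7.75 and 7.77 in the upper flank, against 5.47, 6.01 and 5.41 at 0 h.

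For gibberellin 2 of 11 genes rose and 1 fell. The receptor gid1 rose by 0.74 (SE 0.14) and D35, an oxidase early in synthesis, by 0.77 (SE 0.16). Of 9 ethylene genes the receptor ETR2 rose by 1.23 (SE 0.18), and EIL1/EIL1B, of the transcription factors at the end of the pathway, fell by 2.02 (SE 0.21). Abscisic acid genes split, with 6 of 27 higher and 3 lower, and 3 higher and 4 lower without centring. ABA8OX1, which degrades abscisic acid, rose by 1.15 (SE 0.19), and the kinase OsSAPK9 stood at 2.30, 1.94 and 2.2 in the upper flank and 4.16, 4.26 and 4.30 at 0 h (difference -2.09, SE 0.16). Of 27 jasmonate genes 2 rose and 2 fell, with LOX3, a lipoxygenase, higher by 1.93 (SE 0.34) and JAZ6, of the JAZ repressors, lower by 0.92 (SE 0.22).

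Genes of carbohydrate use changed in both directions. Of 32 starch and sucrose genes 7 rose and 5 fell. Besides AMY3D, the α-amylase amy2A rose to 5.58, 5.26 and 4.82 in the upper flank, against 2.77, 2.77 and 3.13 at 0 h (difference 2.33, SE 0.24). OsSUS4, a sucrose synthase, rose by 1.4 (SE 0.21), and CIN1, a cell wall invertase that splits sucrose outside the cell, fell by 1.35 (SE 0.21). Without the third upper flank array 3 of the 32 fell. Of 12 sugar transporters 3 rose and 4 fell. OsSWEET11, a sugar exporter, had 3.27, 3.12 and 3.09 in the upper flank and 4.79, 5.63 and 6.68 at 0 h (difference -2.54, SE 0.39), OsSWEET2b fell by 1.71 and OsSWEET16 by 1.32, while OsSWEET14 rose by 1.31 and the phloem sucrose carrier OsSUT1 by 0.95.

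Some transcripts known to rise when sugar or oxygen is short were among the rises. Whether either was short in these pieces was not tested. Of 8 genes in the list of hypoxia and fermentation 4 rose and none fell, in every fit that left out 1 array. Only Adh2 and PDC2 among the 4 are fermentation enzymes, and 1 of 2 probe sets of PDC2 was called. Adh2, an alcohol dehydrogenase, read 6.94, 7.11 and 6.90 in the upper flank and 5.72, 5.91 and 5.38 at 0 h (difference 1.32, SE 0.18), PDC2, a pyruvate decarboxylase, rose by 0.43 and the pyruvate phosphate dikinases PPDK2 and OsPPDKB by 2.17 and 0.94. MCCA, a subunit of the enzyme that breaks down leucine, rose by 1.23 (SE 0.20), and 2 of 11 genes of carbon starvation and autophagy rose in all. In that list 6 genes lay above 0 and 5 below, with a median difference of 0.16. In nitrogen metabolism GDH2, a glutamate dehydrogenase that can release ammonium from glutamate, rose by 1.88 (SE 0.33) with all 3 probe sets called, whereas NIA1, nitrate reductase, stood at 3.08, 3.12 and 2.47 in the upper flank against 4.78, 5.16 and 4.72 at 0 h (difference -1.99, SE 0.28) and Fd-GOGAT, which makes glutamate in plastids, fell by 0.83. In all 1 of 17 nitrogen genes rose and 4 fell. OsPht1;6, a phosphate carrier, fell by 1.66 (SE 0.34).

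Of 20 aquaporins 4 rose and none fell, and 2 rose without the second upper flank array or without the third 0 h array. OsPIP2;5, a channel of the plasma membrane, stood at 7.65, 7.62 and 7.51 in the upper flank and 5.83, 5.49 and 5.61 at 0 h (difference 1.95, SE 0.13, 3.86-fold), and OsPIP2;2 rose by 1.29 (SE 0.26). Redox and calcium genes held individual large changes rather than a common direction. Of 36 glutaredoxins and thioredoxins 7 rose and 4 fell, with GRXC3 lower by 2.08 (SE 0.39) beside the rises of GRXC10 and GRXC15, and GSTF1, a glutathione S-transferase, fell by 2.72 (SE 0.25). Of 30 calcium sensors 3 rose and 6 fell: CML29 rose by 1.22, and CML16, CBL4 and CML17 fell by 1.85, 1.78 and 1.31. Of 37 CIPK and CDPK kinases 6 rose and 7 fell. CPK9 and CIPK25 fell by 1.65 and 1.4, and 2 of the 37 rose without the second or the third upper flank array or without the third 0 h array.

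Single transcription factors changed in several families. DREB1A, which switches on cold and drought genes, stood at 4.47, 4.68 and 4.45 in the upper flank against 2.41, 2.72 and 2.19 at 0 h (difference 2.09, SE 0.25). Of 10 MYB genes 5 rose and none fell, among them myb17 by 0.97 (SE 0.20) and MYBAS1 by 0.81 (SE 0.20), but 2 rose without centring, and 3 without the third upper flank array or without the first 0 h array. Of 22 bZIP genes 6 rose and 1 fell, with OsbZIP83 and OsbZIP41 higher by 1.27 and 1.20 and OsbZIP37 lower by 0.99. Only 3 of the 22 rose without the third upper flank array or without the third 0 h array. Of 44 homeobox genes 7 rose and 7 fell, the falls below the share over all genes. HOX12 rose by 1.70 (SE 0.39), and HOX33, of the class that sets the upper face of leaves and shapes vascular tissue, and HOX20 fell by 1.10 and 1.28. The rises in this family numbered 4 without the second or the third upper flank array or without the third 0 h array, and 3 without centring. Of 27 growth-regulating, TCP and SPL factors 6 fell, a share near that over all genes, but none did without the first upper flank array and 2 without the third 0 h array.

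Ribosomal protein, ubiquitin and proteasome genes moved little, while some of the array's rice control genes were lower in the upper flank. The 3′ probe sets differed by -0.582 (SE 0.117) for actin and -0.445 (SE 0.135) for cyclophilin. For Gapdh and ubiquitin they differed by -0.0918 (SE 0.107) and 0.008 (SE 0.103). The 5′ probe sets of actin and Gapdh differed by -1.5 (SE 0.449) and -1.04 (SE 0.335). None of 22 ribosomal protein genes was called, with a median of -0.12. Of 26 ubiquitin and proteasome genes 4 fell by less than 2-fold and none rose. None fell without the third 0 h array or without centring, and 1 fell without the second or the third upper flank array. Of 21 heat shock protein genes 3 rose and 5 fell, and without centring 2 rose and 2 fell. HSP18.6 fell by 2.54 and HSP26.2 by 1.29 (SE 0.28), while the small heat shock protein hsp17.9 rose by 1.41 (SE 0.17). Of 18 heat shock factors 1 rose and 3 fell, with HSF18 lower by 1.83 (SE 0.26). Of 16 defence genes 1 rose and 1 fell, and their summed signal was 704 to 1000.0 array medians in the upper flank and 796 to 957 at 0 h. Of 7 nuclear photosynthesis genes 2 were called higher, LIR1 and OsrbcS, and 4 lay above and 3 below 0. OsrbcS rose by 0.56 (adjusted p = 0.0476, limma), but its other probe sets differed by -0.20 and -0.56. The summed signal of the list, LIR1 included, was 113 to 148 in the upper flank and 61.6 to 107 at 0 h, and does not show a rise of the list as a whole. The 2 calls were 1 in most fits that left out an array. Phloem markers summed to 325 to 355 in the upper flank and 311 to 344 at 0 h, and 11 epidermis and cuticle markers to 500 to 543 and 426 to 526. The 2 markers of crown root primordia, neither of them called, summed to 19.6 to 22.5 in the upper flank and 23.1 to 33.2 at 0 h. In the lower flank at 6 h the sums were 417 to 452 for phloem, 427 to 514 for epidermis and cuticle and 148 to 170 for crown root primordia. Of 2391 genes with several probe sets tested, 306 had at least 2 called and 11 of these had calls in opposite directions. For OsPP2C45, a protein phosphatase singled out after its values were seen, 1 probe set rose by 4.45 (adjusted p = 0.00039) and the other, with the higher signal, differed by -0.14 (adjusted p = 0.557, both limma).

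To see which of these changes belonged to the upper flank, its arrays at 6 h were tested against those of the lower flank at 6 h. Both flanks were cut as pieces at the same time, so hour and dissection were alike. Between them 502 probe sets were called, 81 higher and 421 lower in the upper flank, or 1.75% of those tested (0.283% higher and 1.47% lower). The same-numbered arrays of the 2 flanks deviated together, and with replicate number as a block 945 were called, 288 higher and 657 lower. Values for genes and lists below come from the fit without the block unless stated. Leaving out 1 array gave 283 calls without the second lower flank array, 294 without the third upper flank array and 328 without the second, and replicates 2 and 3 alone gave 238. The lower flank's difference from 0 h, quoted below, uses the same 0 h arrays as that of the upper flank.

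For ARF10, EXP5, FIB and OsSWEET11 the upper flank was below both the lower flank and the base at 0 h. OsSWEET11 read 3.27, 3.12 and 3.09 in the upper flank, against 5.83, 6.24 and 6.01 in the lower flank, a difference of -2.87 (adjusted p = 0.00182, limma), and the lower flank differed from 0 h by 0.33. EXP5 was lower in the upper than in the lower flank by 1.54 (adjusted p = 0.00282), ARF10 by 1.33 (adjusted p = 0.00696) and FIB by 1.62 (adjusted p = 0.000319, all limma). EXPB11 stood at 6.49, 6.49 and 6.03 in the upper flank and at 7.77, 7.77 and 7.77 in the lower (difference -1.43, adjusted p = 8.98e-05, limma), and the lower flank was 0.17 above 0 h. OsUGE-2, OsSWEET16 and CSLC7 were likewise lower in the upper flank, by 1.18, 1.56 and 0.87.

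In another set of genes the upper flank was below the lower although it had itself risen, or had fallen while the lower flank rose. IAA9 had 3.49, 3.32 and 3.12 in the upper flank and 5.99, 6.39 and 6.26 in the lower, a difference of -2.90 (adjusted p = 0.000546, limma), with rises over 0 h of 1.41 and 4.31. BU1 differed by -3.01 (adjusted p = 3.96e-05), with values of 4.39, 4.44 and 4.30 in the upper flank and 7.57, 7.32 and 7.25 in the lower. IAA20 differed by -4.93 (adjusted p = 4.73e-05, limma), being 1.87 below 0 h in the upper flank and 3.06 above it in the lower. Os09g24840, the GAST1-like locus, differed by -2.67 (adjusted p = 0.00361, limma), with rises over 0 h of 3.10 and 5.77. Its name came from the study's tables of flank differences in these same samples, so this call is no independent result. The reverse order was held by OsPIP2;5, EXP1, amy2A and OsRAA1, which were higher in the upper than in the lower flank by 1.65, 1.41, 1.41 and 1.04 (adjusted p = 2.08e-05, 0.0175, 0.00695 and 0.0067, limma). EXP1 lost this call in 4 of the 15 fits that left out 1 array. With replicates 2 and 3 only, EXP5, CSLC7, IAA9, EXP1, amy2A and OsRAA1 were not called between the flanks.

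By list, 9 of 25 Aux/IAA genes were lower and 1 higher in the upper than in the lower flank, as were 3 of 16 auxin response factors, 3 of 8 UDP-sugar genes, 2 of 9 cellulose synthases and 3 of 16 cellulose-synthase-like genes lower, beside 0.315% of all genes called higher and 1.84% called lower. With replicate number as a block 10 of the 25 Aux/IAA genes were lower and 1 higher. These lists differed in how the lower flank had changed from 0 h. Its median change was -0.01 for Aux/IAA and for UDP-sugar genes. It was -0.37 for auxin response factors, -0.57 for cellulose synthases and -0.19 for cellulose-synthase-like genes. The median difference between the flanks was -0.39 for Aux/IAA genes, -0.32 for cellulose synthases and -0.01 for auxin response factors. None of the clock, hypoxia and fermentation, glutaredoxin and thioredoxin, histone or nitrogen genes tested was called between the flanks, with or without the block. For GRXC10, CIPK10 and LIR1 the differences were 0.42, 0.04 and 0.15 (adjusted p = 0.691, 0.927 and 0.833, limma), and for 4CL.2 and OsMCM6 0.07 and 0.04 (adjusted p = 0.97 and 0.975, limma). A call missed in this test does not show that the flanks were alike.

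**Figure D5:**
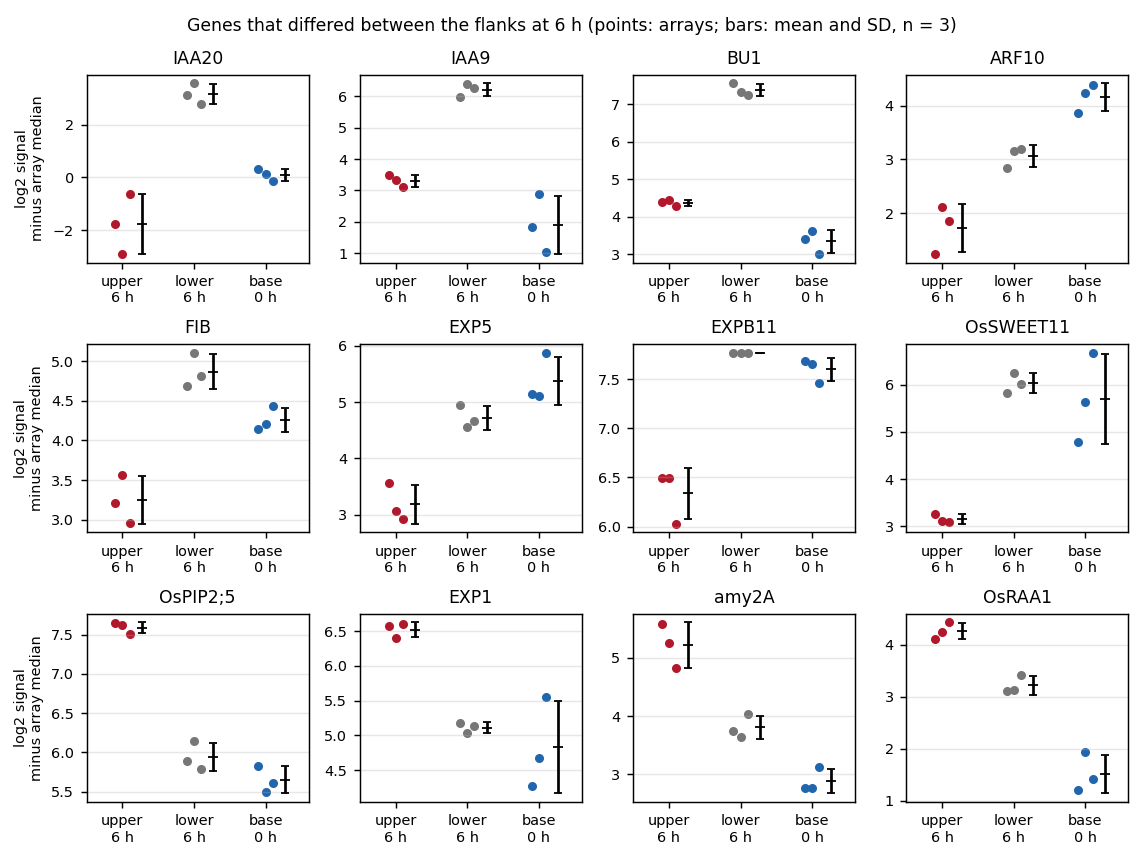
Centred log2 signal (y axis, a scale of its own in each panel) of 12 genes called between the flanks at 6 h, in the upper flank at 6 h, the lower flank at 6 h and the whole base at 0 h. Points are arrays and the bars give the mean and SD (n = 3). In the first 8 panels the upper flank lies below the lower flank, and in the last 4, from OsPIP2;5 to OsRAA1, above it.

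Between the upper flank at 6 h and at 0.5 h, pieces cut alike, 9383 probe sets were called, 3969 higher and 5414 lower at 6 h, or 32.8% of those tested (13.9% higher and 18.9% lower, and 15.4% and 22.8% of genes with 1 probe set each). GRXC10 read 1.25, 1.84 and 2.6 at 0.5 h, so that it rose by 5.70 by 6 h (adjusted p = 6.06e-07, limma), and LIR1 rose by 5.21 (adjusted p = 2.88e-08), having stood 1.22 below the 0 h base at 0.5 h. OsMCM6 fell by 3.75 and ARF10 by 2.81 over the same interval (adjusted p = 4.42e-06 and 1.91e-06, limma). Some genes differed from the 0 h base at 0.5 h in the other direction than at 6 h. OsPht1;6 was 1.62 above the 0 h base at 0.5 h and 1.66 below it at 6 h. CML17 was 1.47 above and then 1.31 below. Either difference from 0 h also sets a cut piece against the whole base. Against the upper flank at 0.5 h 8 of 9 cellulose synthases, 10 of 20 brassinosteroid genes and 12 of 25 Aux/IAA genes were lower at 6 h.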

How the data were processed

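RNA from 15 pools, 3 for each of 5 groups, was hybridised to Affymetrix rice arrays after labelling with biotin. The deposited intensity values are 1 signal per probe set and array, computed by the authors with MAS5 (per the labels) on a linear scale. The scaling target was not found in the labels or methods, and the array medians ran from 17.16 to 29.6. Groups and replicate numbers came from the sample titles. The labels call the replicates biological, but p-values measure only the spread between these pools.

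Signals were taken to log2 and centred on the median of each array. Control probe sets (123) were left out, and the 50 percent with the highest mean, 28629 of 57381 probe sets, were tested with limma 3.58.1 (R 4.3.3), with 1 mean per group over all 15 arrays and Benjamini-Hochberg adjustment over all tested probe sets. The fit was tested on simulated data first. Tables were made with pandas 2.3.3 in Python 3.11.15. Of all probe sets 22436 carried 1 gene, 95 several and 34850 none. A probe set with several genes named none. A gene took its brightest probe set that named it alone. Descriptions of 1084 probe sets came from the study's tables of genes that differed between flanks, from which no value was used.

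Named genes were the 12 largest rises and 12 largest falls among calls of at least 2-fold without overlap, every clock gene tested, and up to 4 called members of each other list with the largest difference. Other genes were named after their values were seen, such as further replication genes, CESA1, CESA2, CESA3, PAL, CDC2-1 and the cyclin CYCB1-1/CycB1;1. The comparison and the lists were chosen with earlier results of these data known. Alternatives were the arrays of the comparison alone, an intensity trend, 10 added before log2, no centring, quantile normalization, other signal filters, replicate number as a block and each array left out. The fit of replicates 2 and 3 only was added after seeing the data. Between the flanks at 6 h the numbers were taken to pair the arrays, since deviations from the group means correlated at 0.476, 0.261 and 0.408 for the 3 pairs, each over the limit of 0.1. The flank differences and adjusted p of single genes and lists nevertheless come from the fit without this pairing, unless stated.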

Additional observations from a re-analysis of the deposited data

Results flagged for a closer look

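The results here stood out because a test of the upper flank at 6 h against another flank sample found a difference between changes that share the 0 h arrays. Between 0.5 h and 6 h in the upper flank 9383 probe sets were called. When both flanks were compared at 6 h, 29 of the 187 named genes were called, against 1.75% of all probe sets tested (limma adjusted p under 0.05, without a replicate block). Most named genes were chosen for their difference from 0 h in the same upper flank arrays, so a raised share among them is in part built in. No cause was tested.

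The differences, upper minus lower flank on the log2 scale, were negative for most. Among auxin genes they were -4.93 for IAA20, -2.90 for IAA9, -1.36 for IAA20/IAA4, -1.33 for ARF10 and -1.62 for FIB. For BU1, BHLH003 and LOG, a cytokinin-activating enzyme, they were -3.01, -0.64 and -1.34. Among wall genes they were -1.54 for EXP5, -1.43 for EXPB11, -0.52 for CESA8, -0.87 for CSLC7, -0.65 for CSLC9, -0.53 for Os-UGD4 and -1.18 for OsUGE-2. Among sugar genes they were -2.87 for OsSWEET11, -1.56 for OsSWEET16, -0.61 for OsSUT2 and -1.21 for CIN1.

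Loci named only by the study's tables of flank differences, which were chosen for such a difference in these samples, gave -2.67 for Os09g24840, -2.42 for Os01g46984, -1.45 for Os08g30080, -1.30 for Os02g15340, -1.25 for Os03g46860 and -1.07 for Os01g22640. The upper flank was higher for OsPIP2;5 by 1.65, EXP1 by 1.41, amy2A by 1.41 and OsRAA1 by 1.04. The calls of CESA8, Os-UGD4 and LOG were lost in 13, 13 and 14 of the 15 fits that left out 1 array, and those of BHLH003, CSLC9 and Os08g30080 in 9 each.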

How the results depend on the processing

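Over all alternatives for the upper flank at 6 h against 0 h the calls numbered between 4074 and 9397. Fitting only the 6 arrays gave 4074 calls (1577 higher, 2497 lower) against 6697, and testing every probe set without a signal filter gave 4343 (1627 higher, 2716 lower). Keeping the brightest 30 percent gave 1541 calls of at least 2-fold (652 higher, 889 lower), against 2735. The split of calls was 34.4% higher with median centring and 47.4% after quantile normalization (3278 higher, 3639 lower). Leaving out each of the 15 arrays gave 4634 to 7129 calls, 2215 to 3156 calls of at least 2-fold, and 7314 to 9765 calls against the upper flank at 0.5 h. For the upper minus the lower flank at 6 h it gave 283 to 578 calls, against 502. That count was 189 with the 6 arrays of the comparison only, 238 with replicates 2 and 3 only (an alternative chosen after seeing the data), 222 without centring and 249 without a filter. The causes of these moves were not tested.

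With the replicate number as a block, 9397 probe sets were called for 6 h against 0 h (3275 higher, 6122 lower), 11936 against the upper flank at 0.5 h and 945 between the flanks at 6 h (288 higher, 657 lower). Between the flanks at 6 h, deviations of same-numbered arrays correlated above the limit of 0.1 in every pair (r = 0.476, 0.261 and 0.408 over probe sets). Against 0.5 h all 3 were positive but 1 missed the limit (0.298, 0.175 and 0.0981), and against 0 h the signs differed (0.187, 0.0447 and -0.283), so there the numbers were not taken to pair the arrays.

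Of the 183 named genes that were called, 111 kept their call under every alternative and 72 lost it under at least 1, while none changed sign. CCA1, which was not called, ran from -0.13 to 0.04 over the fits that left out 1 array, with 0.04 without the second 0 h array, against -0.04. Of 55 list medians 5 moved by more than the replicate spread. The precision rests on 3 arrays a group, and signals below the array median are the least certain.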
